A study of Mus musculus with 8 samples.

Results

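The immediate early genes described here are Fos, Fosb, Jun, Junb, Egr1, Ier2, Ier3, Nr4a1, Atf3 and Dusp1, 10 of the 19938 genes measured on 8 arrays of mouse intestinal epithelium. They were chosen by name, and each was read by 1 probe set that names no other gene. RNA came from epithelial cells isolated from the small bowel of ICR mice, which are outbred, males aged 8 weeks, taken 4 days after the gut of the living animal had been transfected. In 1 arm, 3 arrays labelled siYAP/TAZ (siRNAs against the coactivators YAP and TAZ) were set against 3 arrays labelled siGFP (an siRNA against a jellyfish protein). In the other arm, 1 array labelled shYAP/TAZ (plasmids for shRNAs against both genes) was set against 1 array labelled shLacZ (a plasmid for an shRNA against a bacterial enzyme). The description of each control names the knockdown array it belongs to, which gives 4 pairs. The labels say neither that arrays of a group came from separate mice nor what share of the cells was transfected, so a p-value here reflects only how these arrays spread, which may be technical.

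Immediate early genes are switched on within minutes of a growth factor, stress or mechanical signal, from transcription factors that are already present, and their short-lived mRNAs fade again soon after. Most encode transcription factors: Fos and Jun proteins pair through leucine zippers into AP-1, Egr1 is a zinc finger factor and Nr4a1 an orphan nuclear receptor. Others limit the signal, such as Dusp1, a phosphatase that turns off MAP kinases. In intestinal epithelium they are known to respond to injury and to growth factors such as EGF.

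The 250 bases before the transcription start are shown for 6 of the genes. For Fos, Jun, Junb and Atf3 the siRNA arrays numbered 2 and 3 all lay above the other arrays. For Ier3 and Dusp1 these sets of arrays overlapped. The sequences are RefSeq's for GRCm38.p6, 5′ to 3′ on the strand of each gene. Members were matched by symbol, with entries on a single chromosome left out that stayed among the windows counted for comparison. This gave windows for 8 of the 10 genes (all but Egr1 and Ier2), so the absence of those genes is no result about their promoters. Capitals mark TGACG, the core of the cyclic AMP response element that CREB and ATF proteins bind, searched on both strands (CGTCA where it lies on the other strand). The windows are chr12:85473640-85473889 (plus strand) for Fos, chr4:95052223-95052472 (minus) for Jun, chr8:84978749-84978998 (minus) for Junb, chr1:191183334-191183583 (minus) for Atf3, chr17:26508473-26508722 (minus) for Dusp1 and chr17:35821463-35821712 (plus) for Ier3.
Fos: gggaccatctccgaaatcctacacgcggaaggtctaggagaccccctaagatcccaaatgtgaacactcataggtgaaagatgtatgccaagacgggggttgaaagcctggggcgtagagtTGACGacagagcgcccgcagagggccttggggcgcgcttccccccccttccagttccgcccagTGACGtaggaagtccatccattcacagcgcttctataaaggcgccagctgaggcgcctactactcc
Jun: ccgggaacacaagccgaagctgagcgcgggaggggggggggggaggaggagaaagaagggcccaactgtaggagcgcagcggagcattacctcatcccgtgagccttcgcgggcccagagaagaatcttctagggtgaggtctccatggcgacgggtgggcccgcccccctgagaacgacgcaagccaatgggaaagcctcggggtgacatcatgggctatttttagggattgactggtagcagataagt
Junb: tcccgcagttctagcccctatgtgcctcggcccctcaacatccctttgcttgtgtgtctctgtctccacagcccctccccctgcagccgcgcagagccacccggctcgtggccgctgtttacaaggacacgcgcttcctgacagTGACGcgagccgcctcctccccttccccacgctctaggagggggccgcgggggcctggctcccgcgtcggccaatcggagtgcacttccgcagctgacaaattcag
Atf3: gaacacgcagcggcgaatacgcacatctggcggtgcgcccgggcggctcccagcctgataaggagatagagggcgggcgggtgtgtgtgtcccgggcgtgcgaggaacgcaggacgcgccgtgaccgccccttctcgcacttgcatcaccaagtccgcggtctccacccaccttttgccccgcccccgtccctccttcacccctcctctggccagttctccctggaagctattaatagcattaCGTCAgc
Dusp1: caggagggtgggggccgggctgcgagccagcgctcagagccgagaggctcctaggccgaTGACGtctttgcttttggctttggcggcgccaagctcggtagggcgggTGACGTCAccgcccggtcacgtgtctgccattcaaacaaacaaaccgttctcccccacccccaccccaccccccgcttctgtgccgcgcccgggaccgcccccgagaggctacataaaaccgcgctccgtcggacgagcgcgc
Ier3: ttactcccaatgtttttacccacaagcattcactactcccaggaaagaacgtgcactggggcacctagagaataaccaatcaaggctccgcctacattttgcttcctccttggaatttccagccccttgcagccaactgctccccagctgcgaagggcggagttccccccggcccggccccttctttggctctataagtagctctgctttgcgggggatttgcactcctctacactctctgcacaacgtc

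The TGACG core was present in 6 of the 8 windows (Fos, Fosb, Junb, Nr4a1, Atf3 and Dusp1), against 17.8% of 32851 RefSeq promoter windows of the same length. In Fos it began 129 and 66 bases before the start, in Junb 106 bases before it and in Atf3 7 bases before it. Dusp1 held it 3 times, and 2 of these overlapped in a palindrome. Fosb held it once and Nr4a1 held it 4 times, while Jun and Ier3 held none. TATAA on the gene's strand was found in Fos and Ier3, against 5255 of the 32851 windows. No window of the 8 held the AP-1 site TGANTCA (6.75% of all windows) or the CArG box that serum response factor binds (1.47%), both searched on either strand. These are matches of letters in this window only.

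Values below are log2 intensities after quantile normalization, in which 1 unit is a 2-fold difference. Median deposited intensity per array lay between 76.4 and 95.5. Yap1 and Wwtr1, the targeted genes, had log2 differences of -0.12 (SE 0.32) and -0.28 (SE 0.36) between the siYAP/TAZ and siGFP arrays (limma adjusted p = 1.00 for both). In siRNA pairs 1, 2 and 3 and the shRNA pair the differences were 0.25, -0.87, 0.27 and -0.09 for Yap1 and -0.55, 0.58, -0.86 and 0.06 for Wwtr1, so 1 of the 2 target mRNAs was higher in the array labelled as the knockdown in each pair. These mRNA levels thus do not bear out the labels, and "knockdown array" below means only an array labelled siYAP/TAZ or shYAP/TAZ; every direction given rests on those labels. All 10 epithelial markers were measured and among the 13292 brightest genes, with summed linear intensities of 18473 to 36588 per array. The 8 arrays did not fall apart by treatment. The 4 siRNA arrays numbered 2 and 3 (siYAP/TAZ 2, siYAP/TAZ 3, siGFP 2, siGFP 3) differed from the other 4 (siYAP/TAZ 1, siGFP 1, shYAP/TAZ, shLacZ), without overlap, for 2878 genes that were higher and 2505 that were lower, or 14.4% and 12.6% of all genes. Each of these sets holds 2 knockdown and 2 control arrays, so it does not coincide with the treatment; the division was noticed in the data and the labels do not say what its arrays share. siGFP 2 lay nearest the middle, with a score of -1.67 on the first principal component, against 57.5 to 64.5 for the other arrays numbered 2 and 3 and -70.3 to -29.3 for the remaining 4.

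No immediate early gene passed limma's test between siYAP/TAZ and siGFP: 0 of 10 were called at an adjusted p of 0.05, with 0% called among all 19938 genes. At an unadjusted p under 0.05 there were 0 of the 10 and 237, or 1.19%, of all genes. In the mean, 9 of the 10 stood higher in siYAP/TAZ, Fos by only 0.002 and Ier2 by 0.05, and 1, Jun, stood lower. Of all 19938 genes, 9246 stood higher. The median log2 difference was 0.26 for the 10 and -0.02 for all genes. The median of the 10 did not keep its direction across the pairs: it was 0.44, 0.18 and -0.23 in siRNA pairs 1, 2 and 3 and -0.14 in the shRNA pair. In the same order 8, 6, 2 and 4 of the 10 genes were higher in the knockdown array, and 9362, 10186, 9068 and 9532 of all genes. Averaged over the 10 genes, each set to its own mean over the 8 arrays, the level was 0.19, 0.35 and 0.18 in siYAP/TAZ 1, 2 and 3, against -0.42, 0.14 and 0.39 in siGFP 1, 2 and 3, and -0.37 in shYAP/TAZ against -0.45 in shLacZ. By this average siGFP 3 was the highest array and the other controls lay below all 3 siYAP/TAZ arrays.

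**Figure D1:**
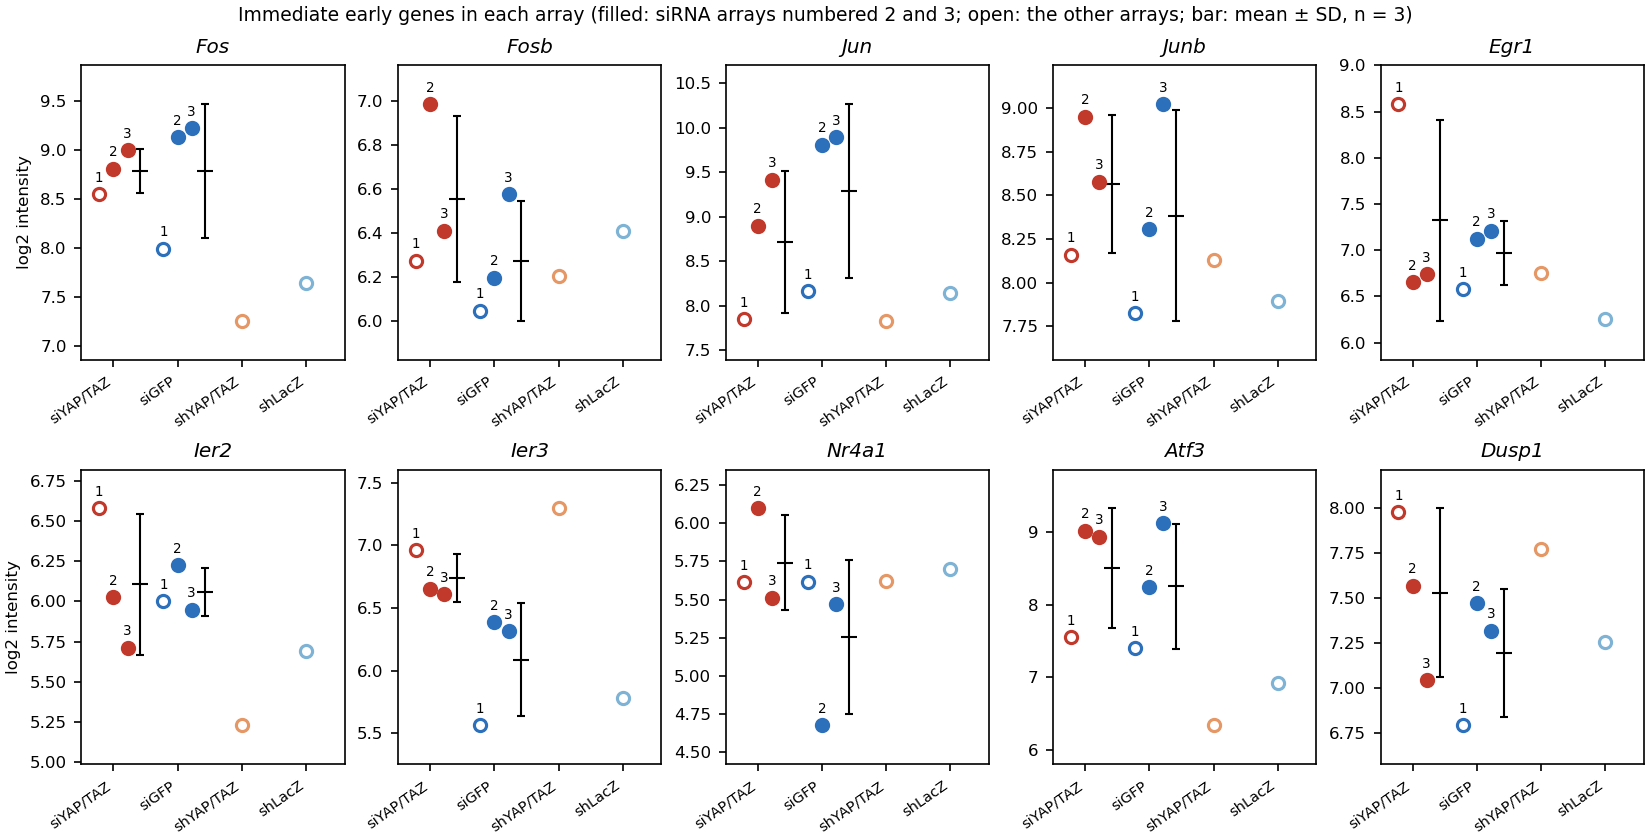
Log2 intensity (vertical axis, scaled for each gene) of the 10 immediate early genes in every array, by group; the number beside a point is the array's number, and black bars are the mean ± SD of 3 arrays. For Fos, Jun, Junb and Atf3 the filled points (siRNA arrays numbered 2 and 3) all lie above the open ones, while for Ier3 all 3 siYAP/TAZ points lie above all 3 siGFP points.

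Among the AP-1 components, Jun, the partner that most AP-1 dimers share, was the gene that stood lower in the knockdown array of all 4 pairs. Jun had log2 intensities of 7.85, 8.90 and 9.41 in siYAP/TAZ 1, 2 and 3, against 8.16, 9.81 and 9.89 in siGFP 1, 2 and 3, and 7.83 in shYAP/TAZ against 8.14 in shLacZ. Each knockdown array lay below its own control, yet the groups overlapped, because both arrays numbered 1 and both shRNA arrays were low. The 4 differences were -0.32, -0.91, -0.48 and -0.31. The mean was 8.72 ± 0.80 in siYAP/TAZ and 9.29 ± 0.98 in siGFP (SD, n = 3 each), 1.48-fold lower. The log2 difference of -0.57 (SE 0.56) had a 95% interval of -1.84 to 0.70 (limma adjusted p = 1.00; exact two-sided permutation p = 0.5). Over all 8 arrays, with the arm as a covariate, the log2 difference was -0.50 (SE 0.45; limma unadjusted p = 0.294, adjusted p = 1.00). The division of the arrays into 2 sets was also used as a further covariate, a choice made after seeing the data. The SE was then 0.21, the unadjusted p by limma 0.0344 and the adjusted p 0.672. In that fit 1373 of the 19938 genes had an unadjusted p by limma under 0.05. Over all alternatives the adjusted p of Jun was 0.580 to 1.00. The same pair differences averaged -0.69 in the arrays numbered 2 and 3 and -0.31 in the other 4. With all 4 pairs lower, neither average could be positive. One gene of 10 was lower in all 4 pairs, where 1785 genes, or 8.95%, of all genes were.

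Fos, the inducible partner of Jun, did not follow it in siRNA pair 1. Fos had 8.55, 8.81 and 9.0 in siYAP/TAZ 1, 2 and 3, against 7.99, 9.13 and 9.22 in siGFP 1, 2 and 3, and 7.26 in shYAP/TAZ against 7.64 in shLacZ. The siYAP/TAZ arrays lay inside the span of the siGFP arrays, and both shRNA arrays lay below all 6 siRNA arrays. The pair differences were 0.55, -0.32, -0.23 and -0.39. The means were 8.79 ± 0.23 in siYAP/TAZ and 8.78 ± 0.68 in siGFP (SD, n = 3 each). The 95% confidence interval of the difference was -0.87 to 0.88, so these arrays are compatible with differences of either sign within it. The sign of the Fos difference rested on single arrays: it was -0.39 without siGFP 1, -0.01 without siYAP/TAZ 2 and -0.10 without siYAP/TAZ 3.

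Junb, a relative of Jun that can also restrain it, and Fosb, a close relative of Fos, differed most in siRNA pair 2. Junb had 8.16, 8.95 and 8.58 in siYAP/TAZ 1, 2 and 3, against 7.82, 8.31 and 9.02 in siGFP 1, 2 and 3, and 8.13 in shYAP/TAZ against 7.89 in shLacZ. It was higher in 3 of 4 knockdown arrays than in their controls, but the groups overlapped over most of their range; the mean difference was 0.18 (SE 0.39), and -0.10 without siGFP 1 or -0.01 without siYAP/TAZ 2. Fosb varied least of the 10, over 0.93 log2 units across the 8 arrays. Fosb had 6.28, 6.98 and 6.41 in siYAP/TAZ 1, 2 and 3, against 6.05, 6.20 and 6.58 in siGFP 1, 2 and 3, and 6.20 in shYAP/TAZ against 6.41 in shLacZ. Its pair differences were 0.23, 0.79, -0.16 and -0.20 and its mean difference 0.28 (SE 0.32), so it had no common direction.

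Atf3, a stress-induced factor of the same zipper class, varied most, over 2.78 log2 units. Atf3 had 7.55, 9.01 and 8.93 in siYAP/TAZ 1, 2 and 3, against 7.40, 8.24 and 9.12 in siGFP 1, 2 and 3, and 6.34 in shYAP/TAZ against 6.92 in shLacZ. Both arrays numbered 1 lay below every array numbered 2 or 3, and both shRNA arrays were lower still. Its SD over the 8 arrays, 1.05, was above that of 97.1% of genes, while the mean difference between siYAP/TAZ and siGFP was 0.25 (SE 0.53). That difference was -0.18 without siGFP 1 and -0.01 without siYAP/TAZ 2.

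All 4 arrays numbered 2 and 3 lay above the other 4 for Fos, Jun, Junb and Atf3, 4 of the 10 immediate early genes against the 14.4% of all genes given above, and 0 of the 10 lay below. Atf3 averaged 8.83 ± 0.40 in the arrays numbered 2 and 3 and 7.05 ± 0.55 in the other 4 (SD, n = 4 each), a log2 difference of 1.77. Jun averaged 9.50 ± 0.45 and 8.00 ± 0.18 in the same order, a difference of 1.51. Fos differed by 1.18 and Junb by 0.71. The remaining 6 genes overlapped between the sets and differed by -0.20 to 0.31. Because the sets were noticed in these data, no test is given.

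Levels of several cell type lists differed between the same sets of arrays, with overlapping sums for some of them. The summed linear intensity of 7 mitotic markers was 358 to 1777 in the arrays numbered 2 and 3 and 1880 to 3249 in the other 4, with 4 of the 7 lower without overlap. Markers of Paneth cells, 5 of 5 measured, summed to 2709 to 10692 in the arrays numbered 2 and 3 and 6603 to 13988 in the other 4. These sums overlapped, and 0 of the 5 were lower without overlap. For fibroblasts, 6 of 8 markers were higher without overlap, with sums of 1403 to 2169 in the arrays numbered 2 and 3 and 819 to 1898 in the other 4, and 1 of the 8, Lum, was outside the 13292 brightest genes. Enterocyte markers summed to 40185 to 57308 in the arrays numbered 2 and 3 and 27486 to 49963 in the other 4. Those sums overlapped too, with 3 of 10 markers higher without overlap. Markers of enteric neurons and glia, 5 of 6 measured, summed to 478 to 705 and 339 to 408 in the same order. Of these 5 markers, 2 were higher without overlap. The part of cell composition in the AP-1 levels was not tested; in such isolates fewer cells of a type and less RNA per cell cannot be told apart.

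Egr1, a zinc finger factor downstream of ERK signalling, owed its position to 1 array. Egr1 had 8.58, 6.65 and 6.74 in siYAP/TAZ 1, 2 and 3, against 6.58, 7.12 and 7.21 in siGFP 1, 2 and 3, and 6.76 in shYAP/TAZ against 6.26 in shLacZ. siYAP/TAZ 1 stood 1.37 above the next highest array, and the other 7 lay within 6.26 to 7.21. The pair differences were 2.0, -0.47, -0.47 and 0.50. The means were 7.32 ± 1.09 in siYAP/TAZ and 6.97 ± 0.34 in siGFP (SD, n = 3 each), a difference of 0.35 (SE 0.52), which was -0.27 without siYAP/TAZ 1.

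Ier2, a small nuclear protein, and Dusp1 were also highest in siYAP/TAZ 1. Ier2 had 6.58, 6.03 and 5.71 in siYAP/TAZ 1, 2 and 3, against 6.0, 6.23 and 5.95 in siGFP 1, 2 and 3, and 5.23 in shYAP/TAZ against 5.69 in shLacZ. Its mean difference was 0.05 (SE 0.32), and -0.19 without siYAP/TAZ 1, -0.01 without siGFP 3 and -0.01 on the deposited values without normalization. Ier2 was dim as well, with a mean level above that of 31.2% of genes. Its difference in the shRNA pair was -0.46, and -0.71 with 16 subtracted before log2. Dusp1 had 7.98, 7.57 and 7.05 in siYAP/TAZ 1, 2 and 3, against 6.80, 7.47 and 7.32 in siGFP 1, 2 and 3, and 7.77 in shYAP/TAZ against 7.26 in shLacZ. The 3 highest arrays for Dusp1 were thus all knockdown arrays, but siYAP/TAZ 3 was the second lowest of the 8. Its pair differences were 1.18, 0.10, -0.27 and 0.51 and its mean difference 0.33 (SE 0.35; limma adjusted p = 1.00), which was 0.11 without siYAP/TAZ 1, 0.13 without siGFP 1 and 0.58 without siYAP/TAZ 3. So Egr1, Ier2 and Dusp1 shared the array in which they were highest, by 0.21 to 1.37 over the next array. Fos, Jun, Junb and Atf3 were all highest in siGFP 3, but by only 0.07 to 0.11 over the next array.

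Ier3, a stress-response protein that modulates cell survival and ERK signalling, was the gene that separated the groups. Ier3 had 6.96, 6.65 and 6.61 in siYAP/TAZ 1, 2 and 3, against 5.57, 6.39 and 6.32 in siGFP 1, 2 and 3, and 7.29 in shYAP/TAZ against 5.78 in shLacZ. Every knockdown array, of either arm, lay above every control array. How many of all genes separate in this way over both arms was not counted, and the shares that follow are for the siRNA arm. One gene of 10 had all siYAP/TAZ arrays above all siGFP arrays, where 319 genes, or 1.60%, of all genes did, and 0 of 10 had them all below, where 2.99% of all genes did. The siRNA means were 6.74 ± 0.19 in siYAP/TAZ and 6.09 ± 0.45 in siGFP (SD, n = 3 each), 1.57-fold higher, or 0.65 on the log2 scale (SE 0.33), with a 95% interval of -0.09 to 1.39. It did not pass limma's test (unadjusted p = 0.0777, adjusted p = 1.00), and the exact two-sided permutation p was 0.1, the smallest that 3 arrays against 3 allow.

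The 4 pair differences of Ier3 were 1.39, 0.27, 0.29 and 1.51. Their sign follows from the separation of the arrays given above and is no further result. Of all genes, 1200, or 6.02%, were higher in all 4 pairs. The 2 wide differences belong to siRNA pair 1 and the shRNA pair. Their controls, siGFP 1 and shLacZ, had the lowest values of the 8 arrays, and their knockdown arrays, siYAP/TAZ 1 and shYAP/TAZ, had the highest. Whether the pairs differ was not tested. Over all 8 arrays with the arm as a covariate Ier3 stood 1.82-fold higher, or 0.87 on the log2 scale (SE 0.28), with a 95% interval of 0.24 to 1.49. Its unadjusted p was 0.0117, with 2.68% of all genes under 0.05, and its adjusted p by limma was 1.00, with 0% of all genes called. With the array sets as a further covariate the adjusted p was 0.410, and over all alternatives it was 0.410 to 1.00. Within the arrays numbered 2 and 3 the difference was 0.28, and within the other 4 it was 1.45. In the shRNA arm, which has no replicates, Ier3 was 2.85-fold higher, the one gene of the 10 past 2-fold, where 1.84% of all genes were at least 2-fold higher and 2.76% at least 2-fold lower. The summed intensity of 8 crypt base stem cell markers was lower in all 4 pairs as well, at 2470, 1273 and 760 in siYAP/TAZ 1, 2 and 3, against 6442, 5120 and 1043 in siGFP 1, 2 and 3, and 1706 in shYAP/TAZ against 3354 in shLacZ. Myeloid markers, 10 of 10 measured, summed to 2621, 1540 and 949 in siYAP/TAZ 1, 2 and 3. In siGFP 1, 2 and 3 they summed to 2144, 2557 and 1515, and to 2680 in shYAP/TAZ against 1945 in shLacZ. Their sum was higher in the knockdown array in siRNA pair 1 and the shRNA pair, and lower in siRNA pairs 2 and 3. In the shRNA pair 10 of the 10 were higher, 5 of them at least 2-fold. The filter on dim genes left out 5 of the 10. The part of either list in the Ier3 and Jun differences was not tested.

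**Figure D2:**
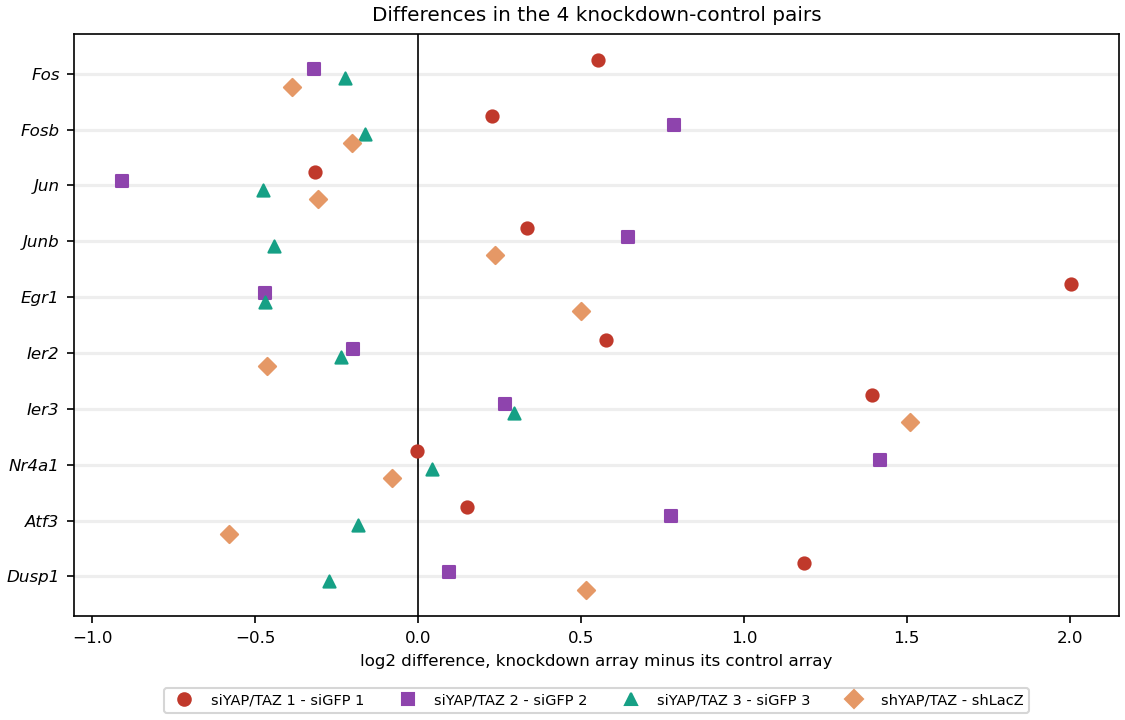
Log2 difference of each knockdown array from its own control array (horizontal axis) for the 10 genes; each mark is 1 of the 4 pairs. All 4 marks of Ier3 lie right of 0 (0.27 to 1.51) and all 4 of Jun left of it (-0.91 to -0.31), while the other 8 genes have marks on both sides.

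Nr4a1, an orphan nuclear receptor induced in many cells by calcium and stress signals, was dim, with a mean level above that of 18.3% of genes. Nr4a1 had 5.61, 6.10 and 5.51 in siYAP/TAZ 1, 2 and 3, against 5.62, 4.68 and 5.47 in siGFP 1, 2 and 3, and 5.62 in shYAP/TAZ against 5.70 in shLacZ. Its mean difference of 0.49 (SE 0.35) came from pair 2, at 1.42, since the other 3 pairs differed by no more than 0.08 in either direction. Without siGFP 2 the mean difference was 0.20. The numbers for such a dim gene also depend on the constant in the deposited values: with 16 subtracted before log2 the mean difference was 0.80.

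Over all 8 arrays, the other 8 genes lay closer to 0 than Ier3 and Jun. Egr1 stood at 0.39 (SE 0.42), Dusp1 at 0.38 (SE 0.27) and Nr4a1 at 0.34 (SE 0.28), which was 0.12 without siGFP 2 and 0.19 without siYAP/TAZ 2. Junb stood at 0.19 (SE 0.30), Fosb at 0.16 (SE 0.26), Atf3 at 0.04 (SE 0.45), Ier2 at -0.08 (SE 0.26) and Fos at -0.10 (SE 0.31), all with a limma adjusted p of 1.00. The median over the 10 genes was 0.18, against -0.02 for all genes. Egr1 and Dusp1 differed in sign between the sets of arrays, at -0.47 and -0.09 within the arrays numbered 2 and 3 and at 1.25 and 0.85 within the other 4; this difference was not tested. For Nr4a1 the same values were 0.73 and -0.04, for Fos -0.27 and 0.08, for Ier2 -0.22 and 0.06, and for Atf3 0.30 and -0.21.

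**Figure D3:**
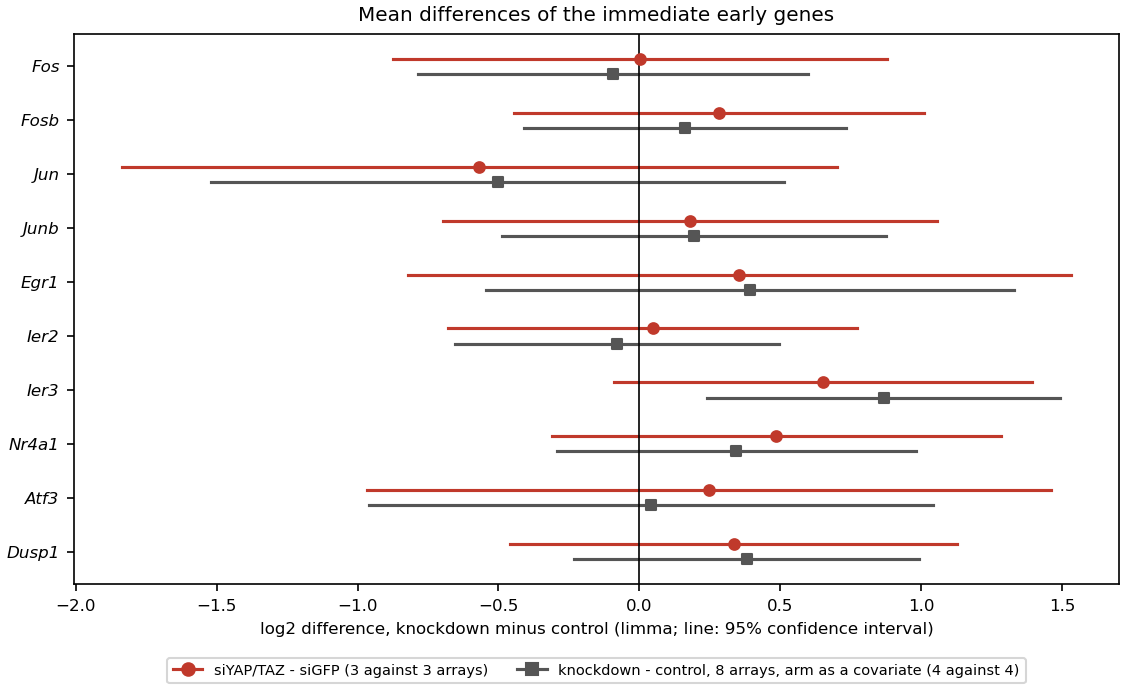
Mean log2 difference between knockdown and control arrays (horizontal axis) for the 10 genes, with 95% confidence intervals from limma, in the siRNA arm (circles, 3 against 3 arrays) and over all 8 arrays (squares, 4 against 4). The intervals include 0 for every gene and both fits, except that of Ier3 over all 8 arrays (0.24 to 1.49).

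Lists of related genes were examined beside the 10, and none of their genes passed the adjusted test in either fit. Among 29 other immediate early genes, 23 stood higher and 6 lower in siYAP/TAZ in the mean, where 9246 of all 19938 genes stood higher. Their median was 0.20 and their pair medians were 0.42, 0.40, -0.21 and 0.19. Socs3, a feedback inhibitor of cytokine signalling, stood highest at 2.05 (SE 0.41), followed by Nfkbiz, a nuclear cofactor of NF-kB, at 0.86 (SE 0.30) and Plk3, a stress-responsive kinase, at 0.77 (SE 0.46). Socs3 had 9.48, 8.00 and 8.85 in siYAP/TAZ 1, 2 and 3, against 6.41, 6.66 and 7.09 in siGFP 1, 2 and 3, and 9.28 in shYAP/TAZ against 6.38 in shLacZ. Every knockdown array lay above every control array, as for Ier3, and the limma adjusted p was 1.00 in the siRNA arm and 0.422 over 8 arrays. Markers of B and plasma cells, 10 of 12 measured, summed to 779, 2740 and 1380 in siYAP/TAZ 1, 2 and 3, against 941, 602 and 716 in siGFP 1, 2 and 3, and to 474 in shYAP/TAZ against 754 in shLacZ, and 6 of the 10 were outside the 13292 brightest genes. Their part in these differences was not tested. Among 14 other DUSP and MAP kinase feedback genes, 8 stood higher and 6 lower (median 0.07). Dusp6, the phosphatase of ERK, stood at 1.40 (SE 0.73) and was higher in all 4 pairs (1.82, 0.57, 1.81 and 0.41), Dusp4 stood at 0.60 and Errfi1, an inhibitor of the EGF receptor, at 0.42.

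Among 14 other EGR, NR4A and zinc finger genes, 7 stood higher and 7 lower (median 0.00). Nab2, a corepressor that binds EGR proteins, stood at -0.88 (SE 0.33), with 6.69 ± 0.48 in siYAP/TAZ and 7.57 ± 0.09 in siGFP (SD, n = 3 each), and was lower in all 4 pairs (-1.39, -0.76, -0.48 and -1.54). Zfp36l2 and Zfp36l1, which speed the decay of short-lived mRNAs, stood at -0.80 and -0.59 in the siRNA arm, and at 0.07 and 0.15 in the shRNA pair. Among 14 other AP-1 and zipper genes, 7 stood higher and 7 lower (median 0.03), with Maf at -0.59, Batf2 at 0.52 and Atf4, the translationally controlled stress factor, at 0.48.

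Genes that act before the immediate early response stood on both sides of 0. Of 14 regulators around SRF and CREB, 6 stood higher and 8 lower (median -0.05), with Mrtfb, an actin-regulated cofactor of SRF, at -0.58, the acetyltransferase gene Ep300 at -0.46 and Crem at 0.46. Of 16 measured receptor and kinase genes, 3 stood higher and 13 lower (median -0.12), with Map2k6 at -0.67, Erbb3 at -0.60 and Erbb2 at -0.48. Of 11 measured heat shock genes, which respond to stress through another factor, 6 stood higher and 5 lower (median 0.06), with Dnaja1 at 0.41, Hsph1 at 0.32 and Hspb1 at 0.22.

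**Figure D4:**
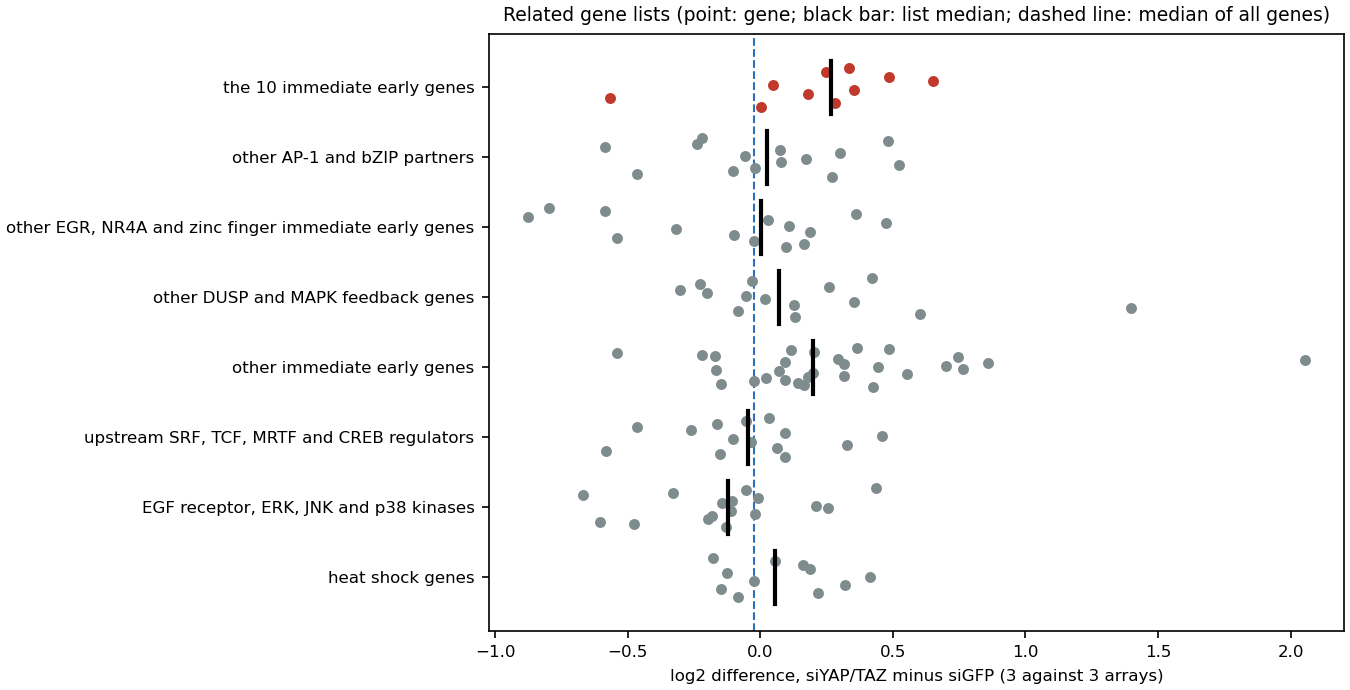
Mean log2 difference between siYAP/TAZ and siGFP arrays (horizontal axis) for each gene of the 10 immediate early genes and 7 related lists; black bars are list medians and the dashed line is the median of all genes (-0.02). Medians run from -0.12 for the receptors and kinases to 0.26 for the 10 genes.

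Between the 2 sets of arrays the related lists went both ways, set against the 14.4% of all genes that were higher without overlap in the arrays numbered 2 and 3 and the 12.6% that were lower. Of the 14 DUSP and feedback genes, 5 were higher, Dusp6 among them with a log2 difference of 2.16, and 2 were lower. Of the 14 SRF and CREB regulators, 0 were higher and 5 were lower, Srf and Mrtfb included. Of the 29 other immediate early genes 5 were higher and 1 was lower, a share of higher genes near that of all genes. The counts were 3 higher and 3 lower of the 14 AP-1 and zipper genes, 1 and 2 of the 14 EGR, NR4A and zinc finger genes, 4 and 4 of the 16 receptors and kinases, and 2 and 1 of the 11 heat shock genes. The genes outside the 10 whose log2 values followed the mean of the 10 most closely were Tmprss11d, Apobec1, Anxa2, Ptpn12, Adam34l and Ifi205, with Pearson's r of 0.957 to 0.968 over the 8 arrays. As a description, all 6 were higher in the arrays numbered 2 and 3 in the mean, by 0.38 to 0.86; the likeness within each set was not computed. Tmprss11d, Adam34l and Ifi205 were outside the 13292 brightest genes.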

How the data were processed

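RNA was measured on 8 Affymetrix arrays, 1 per sample, labelled with the WT Terminal Labeling kit per the labels. For 28853 probe sets the deposited numbers are linear intensity values; the authors' background correction, summarisation and scaling are not stated in the sources used here. Every array's lowest value lies just above 16, so dim genes may carry an added constant that shrinks their differences. Here the values were put on the log2 scale and quantile normalized. Of the probe sets, 21789 named 1 gene; symbols of 21698 were updated through Entrez identifiers with a RefSeq table of GRCm38.p6. A gene was read from its brightest probe set. Differences were tested with limma 3.58.1 in R 4.3.3 (lmFit, eBayes), checked on simulated data, with p-values adjusted by Benjamini-Hochberg across the 19938 genes and called at 0.05. The siRNA arm used 6 arrays; the fit over 8 arrays had the arm as a covariate. Single genes were also tested by exact two-sided permutation. The shRNA arm has no replicates and no test. The number of arrays limits the precision.

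The members and gene lists were chosen with earlier results of these data known. Named genes are the 10 members, both targeted genes, the 3 largest differences of each related list and the 6 genes most like the mean of the members (predicted genes left out). Cell type markers are given beside some results, whether or not they move with the result in every pair. Dusp6, Srf and Mrtfb were also named for the array sets after their values were seen. Genes read only by probe sets that name several genes were not analysed here. The dim genes left out by a filter are those outside the 13292 with the highest mean. Alternatives were other scalings, a constant of 16 subtracted (1 added) before log2, the mean of all probe sets, the filter on dim genes, the pair as a block, a trended and robust prior and leaving out each siRNA array. The array set as a covariate and leaving out both arrays numbered 1 were added after the data were seen.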

Additional observations from a re-analysis of the deposited data

How the results depend on the processing

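None of the 10 immediate early genes was called by limma in either fit under any of the 15 alternatives in which it was fitted. Counts over all genes did move. With the pair as a replicate block, limma called 1 gene in the siRNA arm and 4 over 8 arrays; with the array set as a covariate it called 3 and 8; without both arrays numbered 1 it called 61 and 10; and with 1 array left out, 0 to 13 in the siRNA arm (13 without siYAP/TAZ 1). Ier3 stayed higher and Jun lower in both fits under all 15 alternatives, but many of these could not turn the sign. The mean of all probe sets, the filter, the pair block, the trended prior and the array-set covariate left both estimates unchanged. For Ier3 in the siRNA arm the groups did not overlap, so no single array left out could turn it. Ier3 ran from 0.39 to 0.80 in the siRNA arm and 0.72 to 1.01 over 8 arrays with 1 array left out. Jun ran from -1.13 to -0.13 and from -0.89 to -0.18 in the same order. Whether equal numbers pair the siRNA arrays was checked by the correlation, over genes, of deviations from the group means: it was 0.75, -0.13 and 0.57 for numbers 1, 2 and 3, and siYAP/TAZ 2 followed siGFP 3 best (0.58). The labels name the control of each array but not what the 2 share, and number 2 did not deviate together, so the pairs were not made a block of the reported fits. The replicate block changed no call of the 10 genes, and adjusted p was 0.428 for Ier3 and 0.580 for Jun over 8 arrays. With 1 array left out, Fosb (0.07 to 0.43), Nr4a1 (0.20 to 0.67) and Dusp1 (0.11 to 0.58) kept their sign in the siRNA arm, as did Nr4a1 (0.12 to 0.45) and Dusp1 (0.23 to 0.56) over 8 arrays.

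Other signs turned. In the siRNA arm with 1 array left out, Fos ran from -0.39 to 0.22, Junb from -0.10 to 0.50, Egr1 from -0.27 to 0.69, Ier2 from -0.19 to 0.24 and Atf3 from -0.18 to 0.72. Over 8 arrays the ranges were -0.39 to 0.043 for Fos, -0.011 to 0.25 for Fosb, -0.0013 to 0.42 for Junb, -0.046 to 0.63 for Egr1, -0.27 to 0.036 for Ier2 and -0.30 to 0.34 for Atf3. On the deposited values without normalization the siRNA difference was -0.033 for Fos and -0.013 for Ier2. Without both arrays numbered 1 it was -0.27 for Fos, -0.47 for Egr1, -0.22 for Ier2 and -0.089 for Dusp1, and over 8 arrays -0.15 for Egr1; the cause was not tested. In the shRNA pair Nr4a1 turned to 0.03 with arrays centred on the 75th percentile or left without normalization. Counts of members in the 4 pairs, past 2-fold in the shRNA pair and between the array sets did not move with the scalings. The filter on dim genes left out Ier2 and Nr4a1.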
